A study of Mus musculus with 6 samples.

Results

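The cytosolic heat shock chaperones described here are 10 genes taken by symbol, Hspa1a, Hspa1b, Hspa8, Hspb1, Hspb8, Dnajb1, Hsph1, Hsp90aa1, Bag3 and Hsf1, out of 49315 genes in the table of counts. All 10 were found. RNA was sequenced from RAW264.7 cells, a transformed macrophage-like mouse line labelled as wild type, 24 h after addition of SKI-II at 4 μg/mL or of the same volume of its vehicle, DMSO, with 3 libraries in each group. SKI-II, first described as an inhibitor of sphingosine kinases, is compared with its vehicle to learn how it alters the transcriptome of these cells. Cells were treated as for the study's qPCR assay, whose methods name biological replicates, but neither these nor the labels say outright that the libraries of a group came from separate cultures. The p-values measure the spread between these libraries, and in bulk RNA fewer cells of a type and less RNA per cell cannot be told apart.

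When proteins misfold in the cytosol, the heat shock factor HSF1 is released from chaperones and forms trimers. The trimers bind heat shock elements, repeats of GAA and its reverse complement TTC, in front of chaperone genes. HSP70 proteins bind exposed hydrophobic stretches of a client, J-domain proteins such as DNAJB1 deliver the client, and nucleotide exchange factors such as HSPH1 and BAG3 make HSP70 let it go. HSP90 matures kinases and receptors, and small heat shock proteins such as HSPB1 and HSPB8 hold unfolded proteins until HSP70 takes them over, with HSPB8 and BAG3 working together to send aggregates to autophagy.

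Promoter stretches are shown for the pair of members that rose with SKI-II, Hspa1b and Hspb8, and for Hsph1, whose window held the longest run of heat shock letters and which was not called. They are read 5′ to 3′ on the strand of the gene from the RefSeq windows of GRCm38.p6, which run from 250 bases before to 50 bases after a start site, and capitals mark GAA or TTC in a pair spaced as GAANNTTC or TTCNNGAA. The stretch of Hspa1b is chr17:34959239-34959388, that of Hspb8 is chr5:116422855-116423004 and that of Hsph1 is chr5:149636288-149636437, each on the minus strand.
Hspa1b: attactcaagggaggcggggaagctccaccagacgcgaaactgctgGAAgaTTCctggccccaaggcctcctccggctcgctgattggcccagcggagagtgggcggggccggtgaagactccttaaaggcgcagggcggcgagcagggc
Hspb8: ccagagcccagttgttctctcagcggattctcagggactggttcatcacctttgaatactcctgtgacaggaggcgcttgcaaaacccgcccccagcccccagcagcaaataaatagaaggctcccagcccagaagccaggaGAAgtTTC
Hsph1: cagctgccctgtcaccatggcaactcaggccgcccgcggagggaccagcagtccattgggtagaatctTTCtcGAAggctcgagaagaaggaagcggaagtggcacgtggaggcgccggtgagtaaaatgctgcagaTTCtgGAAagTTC

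Both spacings read the same on either strand and can overlap each other. The pair lay at bases -104 to -97 from the start site in Hspa1b, at bases 3 to 10 after it in Hspb8, and in Hsph1 at -54 to -47 and again from 16 to 28, where it ran on to a further TTC, counted from the start site of the window shown. At least 1 such pair was present in 6 of the 7 members with a window, the exception being Dnajb1, against 15.1% of all 32851 windows. Members were counted by gene, Hsph1 and Dnajb1 with more than 1 window, and the background by window. Hspa1a and Hspa1b, whose windows were nearly alike, count as separate members. Hspa8, Hsp90aa1 and Hsf1 were not matched to a window. A chain of 3 units occurred in 1 member, Hsph1, and in 0.603% of all windows. The letters were thus in windows of members that rose and of members that were not called, and a match is a description, not a bound site. The windows of Hspa1a and Hspa1b differed at 4 of 300 bases, C44T, T47C, T249G and C276T, with the base of Hspa1a first and positions counted from 1 at the 5′ end of the window, and the pair of heat shock units was the same in both.

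The libraries held between 12495957 and 20050677 counts, and 12274 genes had enough reads for a test. Levels are given as counts-per-million values (CPM) after TMM scaling, which corrects for library size and composition. The 10 macrophage markers examined each had at least 10 counts in every library, with a summed level of 9014 to 13109 CPM in DMSO and 5599 to 8008 CPM in SKI-II, and the part of that difference in the results below was not tested. Of markers of other cell types, all 4 epithelial ones were at 0 in every library, and the summed levels of 5 fibroblast, 3 T cell and 4 B cell markers reached at most 1.42, 0.121 and 0.297 CPM.

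Of the 10 members, 8 passed the filter on low counts and 2, Hspa1a and Hspb1, did not. SKI-II raised 2 of the 8, Hspb8 by 9.87-fold and Hspa1b by 9.62-fold, and lowered 1, Hsf1, in edgeR's quasi-likelihood test at an adjusted p below 0.05 (Benjamini-Hochberg over all tested genes). Hspb8 and Hspa1b each had as few as 4 counts in a DMSO library and passed the filter through the SKI-II libraries, where they were high, so their place among the tested members is not independent of the difference. With at least 10 counts demanded of every library neither was tested and 0 members were called higher in edgeR's test, with Hsph1 and Bag3 at adjusted p of 0.0699 and 0.0862. The other 5, which include the most abundant of the 10 members, Hspa8 and Hsp90aa1, were not called. Among all tested genes 18.4% were called higher and 19.7% lower, and the members' counts are not read as a result beyond that background. With a log2 fold change above 1 or below -1 also required, 8.28% and 7.44% of tested genes were called, and of the members the same 2 and none, which for the reason given is a description only. All SKI-II libraries lay above all DMSO libraries in 4 tested members (Hspb8, Hspa1b, Hsph1 and Bag3) and below them in 1 (Hsf1), against 24.8% and 25.5% of tested genes.

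**Figure D1:**
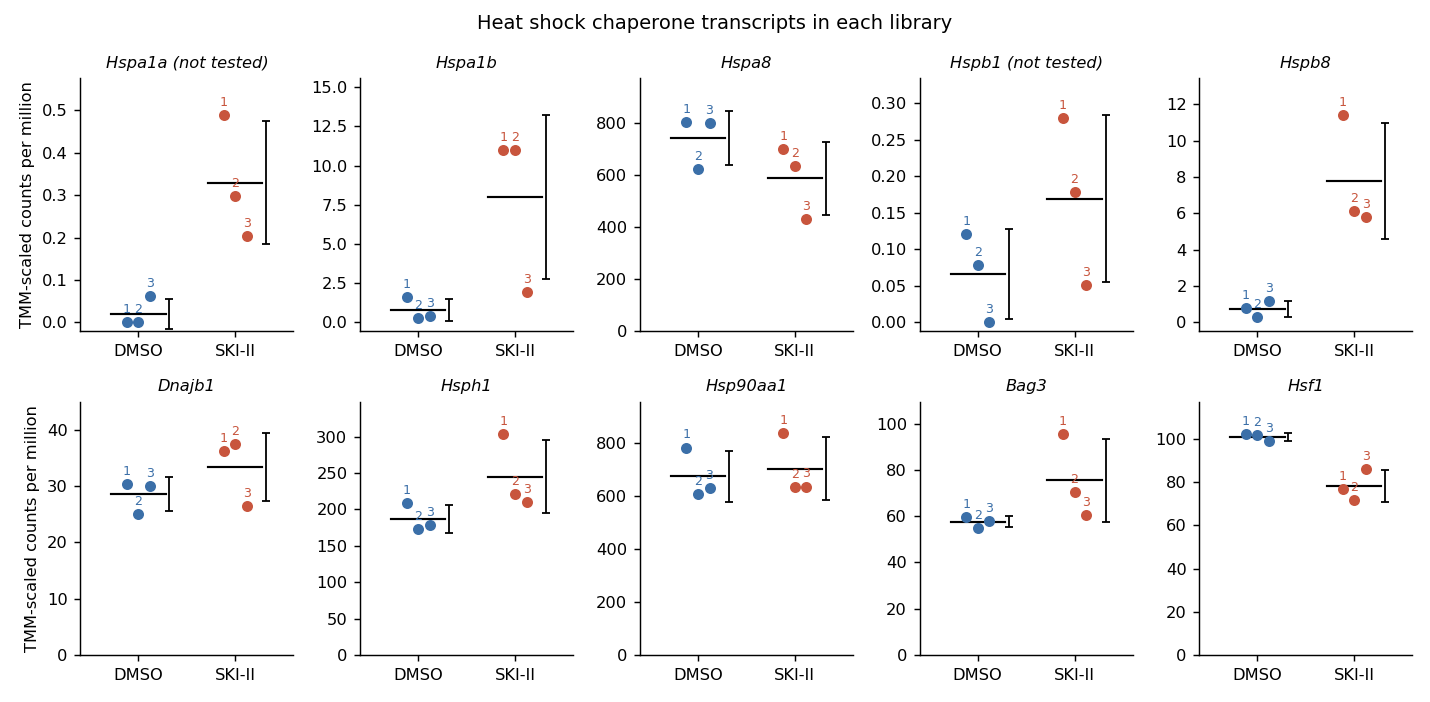
TMM-scaled CPM (vertical axes, 1 scale per gene) of the 10 members in the 3 DMSO libraries (blue) and the 3 SKI-II libraries (red), with replicate numbers, the mean as a line and the SD as a bar beside it. Hspb8 and Hspa1b rose from at most 1.63 CPM to between 1.93 and 11.4 CPM, while Hspa8 and Hsp90aa1 were at 432 CPM or more in every library.

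The small heat shock protein gene Hspb8 (ENSMUSG00000041548; chromosome 5, 116408491 to 116422864 in GRCm38) was at 0.787, 0.315 and 1.17 CPM in DMSO replicates 1, 2 and 3, which rest on 13, 4 and 19 counts. With SKI-II it was at 11.4, 6.13 and 5.79 CPM, from 164, 103 and 114 counts. Every SKI-II library was above every DMSO library, and the first SKI-II library was the highest by a wide margin. The mean went from 0.758 ± 0.430 to 7.78 ± 3.17 CPM (SD, n = 3), or by 3.30 ± 0.46 (SE) on the log2 scale, with an adjusted p of 0.000418 in edgeR's quasi-likelihood test. With any 1 library left out the log2 fold change lay between 2.92 and 3.74 and the call held. No stretch of 50, 100 or 150 bases of its longest transcript was found in a transcript of another gene.

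Hspa1b (ENSMUSG00000090877; chromosome 17, 34956436 to 34959238 in GRCm38), a single-exon gene for stress-inducible HSP70, was at 1.63, 0.315 and 0.432 CPM in DMSO, from 27, 4 and 7 counts. In SKI-II it was at 11.02, 11.004 and 1.93 CPM, from 158, 185 and 38 counts. The groups did not overlap, but SKI-II replicate 3 lay just above DMSO replicate 1 and far below the other two SKI-II libraries. From 0.794 ± 0.730 to 7.98 ± 5.24 CPM (SD, n = 3), the gene rose by 3.27 ± 0.74 (SE) on the log2 scale, and its adjusted p was 0.00619 in the same edgeR test. The call held with any 1 library left out, at a log2 fold change of 2.92 to 3.73 except without DMSO replicate 1, where it was 4.35.

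Hspa1a (ENSMUSG00000091971; chromosome 17, 34969190 to 34972156 in GRCm38), the neighbouring copy of the same HSP70, was counted 0, 0 and 1 times in DMSO and 7, 5 and 4 times in SKI-II. Summed over libraries and scaled by their size, that is a ratio of 14.3, for which counting error alone gives a 95% Clopper-Pearson interval of 2.22 to 599. All 3 SKI-II libraries were above all 3 DMSO libraries, at a level of a few reads. The gene did not pass the filter on low counts. Fits that kept it gave an adjusted p of 0.0364 in edgeR's test with no filter and of 0.0770 in DESeq2. That edgeR fit gave Hspa1b an adjusted p of 4.63e-19, against 0.00619 in edgeR's test with the filter. Its p-values at few counts are thus not comparable with those of the filtered fit. Of all stretches of 100 bases in the longest transcript, 48.6% for Hspa1a and 49.9% for Hspa1b were also in another gene, mostly in the other copy, so reads from the shared part cannot be assigned to one of them. With the counts of both copies summed the log2 fold change was 3.29 (adjusted p = 0.00511 in edgeR's test). An annotated gene on the opposite strand overlaps 19.0% of the Hspa1a exon, and it had no counts in any library.

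Hspb1 (ENSMUSG00000004951), the other small heat shock protein gene among the members, was close to undetected in both groups, where it was counted 2, 1 and 0 times without and 4, 3 and 1 times with SKI-II. The groups overlapped. The ratio of summed counts was 2.38, with an exact counting interval of 0.572 to 13.9 that includes 1. Of its stretches of 100 bases, 42.7% were also in another gene.

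Expression per length put the members into separate tiers, in CPM per kb of exon. Hspa8, which encodes the constitutive HSC70, and Hsp90aa1, which encodes the stress-responsive form of HSP90, led in DMSO with 173 ± 24.1 and 172 ± 24.3 (SD, n = 3), and their ranges overlapped. Hsph1 at 25.7 ± 2.61, Bag3 at 22.5 ± 0.944, Hsf1 at 14.2 ± 0.260 and Dnajb1 at 8.90 ± 0.935 followed, each in a range of its own. At the bottom, Hspb8 at 0.389 ± 0.220, Hspa1b at 0.283 ± 0.261, Hspb1 and Hspa1a each overlapped the next. With SKI-II, Hspb8 and Hspa1b were at 3.99 ± 1.63 and 2.85 ± 1.87, where Hspa1b no longer overlapped Hspb1, and both stayed below Dnajb1 at 10.4 ± 1.87, and the ranges of Hsph1 and Bag3, and of Hsf1 and Dnajb1, then overlapped. These levels count only the reads assigned to each gene. For Hspa8 and Hsp90aa1, 31.6% and 47.5% of the stretches of 100 bases also occurred in transcripts of other genes.

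**Figure D2:**
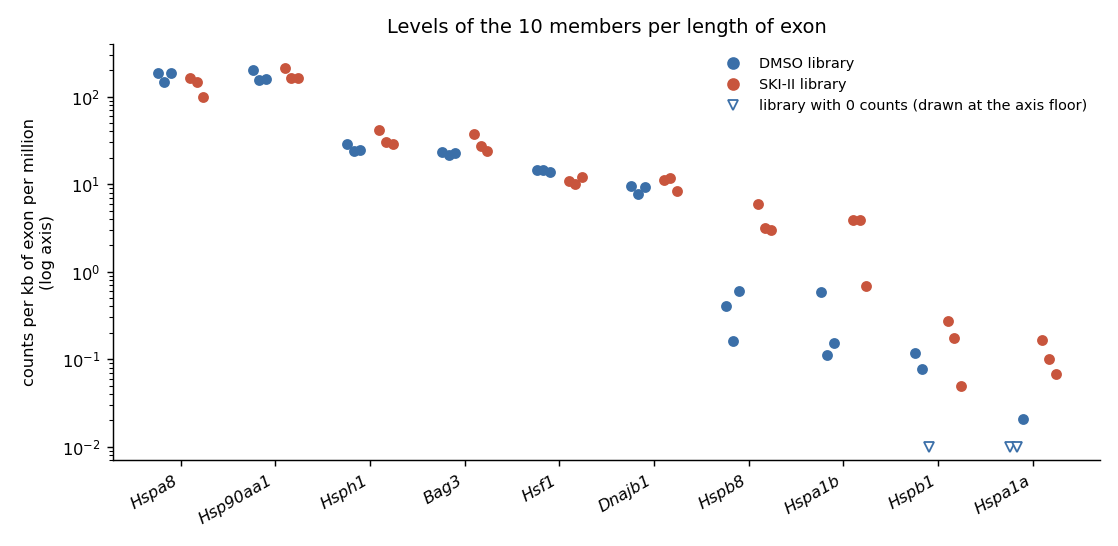
CPM per kb of exon (log axis) for each member and library, ordered by the DMSO mean, with DMSO in blue, SKI-II in red and libraries with 0 counts as open triangles at the axis floor. Hspa8 and Hsp90aa1 lie above 100 in each library, and Hspb8 and Hspa1b rise from below 1 in DMSO to between 0.688 and 5.87 in SKI-II.

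Of the abundant HSP70 machinery, Hspa8 was at 807, 625 and 802 CPM in DMSO and at 700, 635 and 432 CPM in SKI-II. The groups overlapped, and the lowest library was SKI-II replicate 3. Its log2 fold change was -0.34 (standard error 0.19, 95% interval -0.77 to 0.09, adjusted p = 0.197 in edgeR's test). With any 1 library left out Hspa8 was not called, at -0.49 to -0.16. Dnajb1, a heat-inducible J-domain partner of HSP70, was at 30.4, 25.05 and 30.1 CPM in DMSO and at 36.1, 37.5 and 26.5 CPM in SKI-II, again with overlap. The log2 fold change of 0.22 had a 95% interval of -0.15 to 0.60 (adjusted p = 0.323 in the same test). Dnajb1 was at 0.13 to 0.37 with any 1 library left out, and was not called.

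The nucleotide exchange factors Hsph1 and Bag3 were somewhat higher in SKI-II but did not pass the test. Hsph1 was at 208, 173 and 179 CPM in DMSO and at 304, 221 and 211 CPM in SKI-II, and Bag3 at 59.8, 55.1 and 58.1 CPM in DMSO and at 95.6, 70.5 and 60.7 CPM in SKI-II. In both genes the groups did not overlap, by a narrow margin, and SKI-II replicate 1 was the highest. The log2 fold changes were 0.39 for each, with 95% intervals of 0.04 to 0.75 for Hsph1 and 0.02 to 0.76 for Bag3 before adjustment and adjusted p of 0.0773 and 0.0925 in edgeR's test. Without SKI-II replicate 3 both were called, at log2 fold changes of 0.49 and 0.52 (adjusted p of 0.0456 and 0.0284 in the same test), which brought the members called higher from 2 to 4, whereas without SKI-II replicate 1 they were at 0.21 and 0.18. Hsph1 alone was also called with no filter on low counts (adjusted p = 0.0496 in edgeR's test).

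Hsp90aa1 was at 784, 607 and 633 CPM in DMSO and at 840, 636 and 637 CPM in SKI-II, with overlapping groups. The log2 fold change was 0.06 (standard error 0.17, 95% interval -0.31 to 0.43, adjusted p = 0.799 in edgeR's test), and its sign turned to -0.02 without DMSO replicate 2 and to -0.09 without SKI-II replicate 1. Hsf1, the gene of the factor itself, was at 102, 102 and 99.0 CPM in DMSO and at 77.0, 71.8 and 86.1 CPM in SKI-II. Every SKI-II library was below every DMSO library. The log2 fold change was -0.37 (standard error 0.12, adjusted p = 0.0316 in the same test), but the call was lost without any one of DMSO replicates 1 and 2 and SKI-II replicates 1 and 2, with adjusted p of 0.0548, 0.108, 0.0624 and 0.130, and with no filter on low counts (adjusted p = 0.0759). A transcript level says nothing of HSF1 trimers or DNA binding, which were not measured here.

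**Figure D3:**
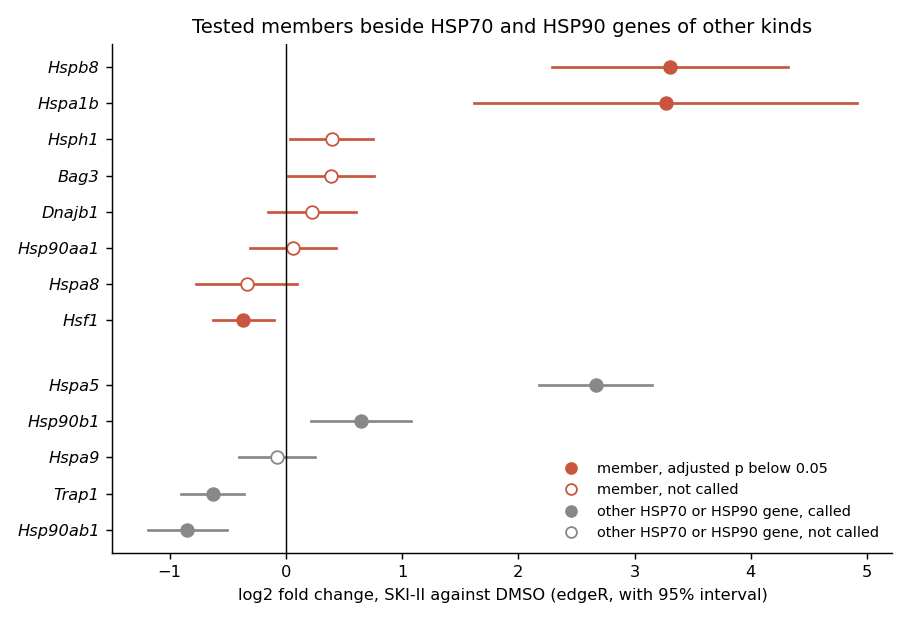
Log2 fold change of SKI-II against DMSO with its 95% interval (horizontal axis) for the 8 tested members (red) and 5 other HSP70 and HSP90 genes (grey), with filled points for an adjusted p below 0.05. Hspb8 and Hspa1b at 3.30 and 3.27 stand apart from the other members, which lie between -0.37 and 0.39.

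The HSP70 and HSP90 genes of other compartments were set beside the members. Hspa5, which encodes the HSP70 of the endoplasmic reticulum, was at 1301, 1198 and 1678 CPM in DMSO and at 11121, 7944 and 7446 CPM in SKI-II, higher by 2.67 ± 0.22 (SE) on the log2 scale (adjusted p = 3.18e-05 in edgeR's test). Its partner Hsp90b1, the HSP90 of the endoplasmic reticulum, rose by 0.64 (adjusted p = 0.0246 in the same test), a call lost when DMSO library 2, or library 1 or 2 of SKI-II, was dropped (adjusted p of 0.117, 0.0695 and 0.0544). In mitochondria, Hspa9 (mortalin) had a log2 fold change of -0.08 (95% interval -0.40 to 0.25, adjusted p = 0.708) and Trap1, the mitochondrial HSP90, fell by 0.63 on the log2 scale (adjusted p = 0.00310), both in edgeR's test.

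Ratios of counts within a library do not depend on the scaling between libraries. The ratio of Hsp90aa1 to Hsp90ab1, the constitutive cytosolic HSP90 gene chosen here after its values were seen, was 0.259, 0.199 and 0.177 in DMSO and 0.480, 0.364 and 0.342 in SKI-II. The groups did not overlap. Hsp90ab1 itself fell from 3216 ± 309 to 1787 ± 64.8 CPM (SD, n = 3), lower by -0.85 ± 0.15 (SE) on the log2 scale (adjusted p = 0.00209 in edgeR's test), next to a difference of 0.06 for Hsp90aa1. The ratio of Hspa5 to Hspa8 was 1.87 ± 0.244 in DMSO and 15.2 ± 2.44 in SKI-II (SD, n = 3), again without overlap. That of Hspa1b to Hspa8 was 0.00102 ± 0.000868 and 0.0125 ± 0.00701 (SD, n = 3), so that even with SKI-II Hspa1b had far fewer reads than Hspa8. The summed level of the 10 members was 1995, 1588 and 1802 CPM in DMSO and 2076, 1690 and 1461 CPM in SKI-II, with overlap, and Hspa8 and Hsp90aa1 made up 73.2% to 79.8% of it.

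**Figure D4:**
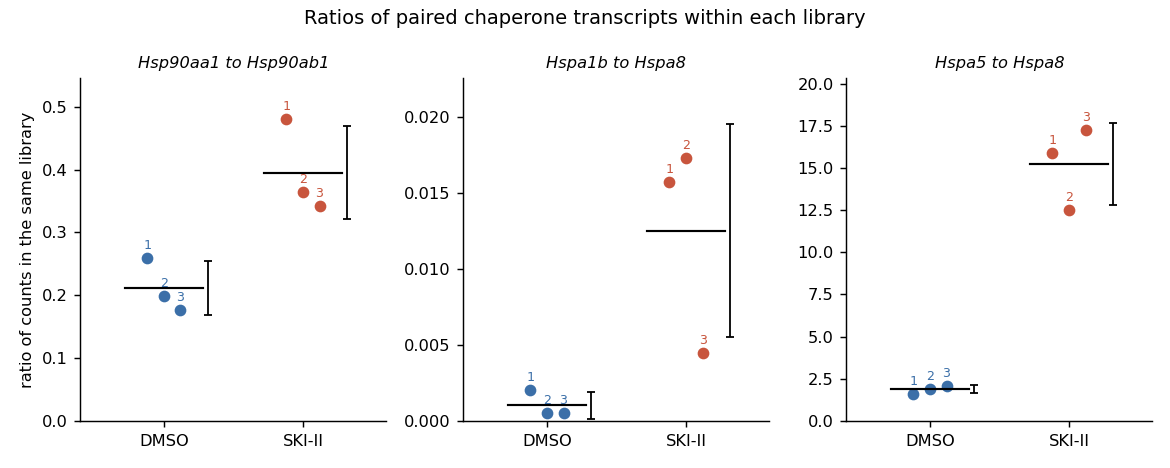
Ratios of read counts within each library (vertical axes) for Hsp90aa1 to Hsp90ab1, Hspa1b to Hspa8 and Hspa5 to Hspa8, with replicate numbers, the mean as a line and the SD as a bar beside it. All SKI-II ratios (red) lie above all DMSO ratios (blue), from 0.177 to 0.259 in DMSO against 0.342 to 0.480 in SKI-II for the first pair.

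Around the members, 92 other genes were placed in 8 groups, 7 of cytosolic chaperones, co-factors and heat shock factors and 1 of other heat-inducible genes, which also holds mitochondrial and secreted proteins and genes that are no chaperones. Of the 92, 78 were tested. Among these 7 were higher and 31 lower, with 1 and 4 of them from the heat-inducible group, with a median log2 fold change of -0.24 against 0.00 over all tested genes, of which 18.4% were called higher and 19.7% lower. Without DMSO replicate 2 the counts were 3 higher and 21 lower, beside 1507 and 1766 of the 12589 genes tested there. The tested members had a median of 0.31. It includes Hspb8 and Hspa1b, which passed the filter through the SKI-II libraries, where they were high, so it is a description only.

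HSP90 and its co-chaperones, which load and release HSP90 clients, had 11 of 20 tested genes lower and 0 higher, against 19.7% and 18.4% of all tested genes. Their median log2 fold change was -0.34. At an unadjusted p below 0.05 in edgeR's test 2 genes were higher, and 0 were called higher by DESeq2 or limma-voom. Without DMSO replicate 3, or without SKI-II replicate 3, 1 gene was called higher. The lowest were Aarsd1 at -1.30, Ppp5c, a phosphatase that binds HSP90, at -1.03 and Fkbp4, an immunophilin of steroid receptor complexes, at -0.87 (adjusted p of 0.00169, 0.000468 and 0.000842 in edgeR's test). Ptges3, which encodes the co-chaperone p23, fell from 194 ± 1.67 to 134 ± 13.9 CPM (SD, n = 3). Ppid at -0.34 and Tomm34 at -0.35 were just past the threshold (adjusted p of 0.0381 and 0.0499 in the same test). Ppid kept its call in 1 of the 6 fits without 1 library, that without DMSO replicate 3, and lost it with library size alone and with no filter on low counts (adjusted p of 0.0528 and 0.109 in edgeR's test). Tomm34 was lost in all 6 fits without 1 library, with RLE scaling, library size alone, no filter on low counts, a minimum of 10 counts in every library and DESeq2, at adjusted p of 0.0538 to 0.164.

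The chaperonin TRiC, which folds actin and tubulin, had all 8 of its subunit genes called lower with all 6 libraries, against 19.7% of all tested genes. They lay between -0.41 and -0.72 on the log2 scale, and in edgeR's test 0 were higher at any p below 0.05. The lowest were Cct4 at -0.72, Cct5 at -0.69 and Cct7 at -0.66 (adjusted p of 0.0130, 0.00779 and 0.00833 in that test), and Cct3, Cct6a and Cct8 lay between -0.41 and -0.53. Cct3 kept its call in 1 of the 6 fits without 1 library, that without SKI-II replicate 3, with an adjusted p of up to 0.0974 in edgeR's test in the others, and Cct6a was lost without DMSO replicate 2 and Cct4 without SKI-II replicate 2. By the counts, at least 1 of Tcp1 and Cct2 was also lost in both of these fits, and without SKI-II replicate 1, where the number lower over TRiC and prefoldin was 6. Cct5, for example, was at 615, 659 and 755 CPM in DMSO and at 342, 425 and 490 CPM in SKI-II, without overlap. Of the 6 genes of prefoldin, which hands clients to TRiC, 0 were called in either direction by edgeR, DESeq2 or limma-voom, with 1 lower at an unadjusted p below 0.05 in edgeR. Without DMSO replicate 2, or without SKI-II replicate 2, the number lower over both complexes was 5, against 8 with all libraries. Without SKI-II replicate 3 it was 9, so that at least 1 prefoldin gene was called lower there.

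Of 17 tested J-domain genes, the partners that bring clients to HSP70, 3 were higher and 2 lower, shares no larger than the 18.4% and 19.7% over all tested genes. Dnajb4, a close relative of Dnajb1, rose from 20.2 ± 1.55 to 40.8 ± 9.44 CPM (SD, n = 3), or by 1.01 on the log2 scale (adjusted p = 0.00215 in edgeR's test), followed by Dnajc5 (cysteine string protein) at 0.56 and Dnaja2 at 0.35. Dnaja2 kept its call in 2 of the 6 fits without 1 library, those that dropped DMSO library 3 or SKI-II library 1, and lost it with no filter on low counts (adjusted p = 0.0860 in edgeR's test). Dnajc5 lost its call without DMSO replicate 2. Dnajc9, a histone co-chaperone, fell by 1.29 and Dnajc27 by 0.51 on the log2 scale, the latter not called with no filter on low counts (adjusted p = 0.0594 in edgeR's test). Without DMSO replicate 2 the count higher was 1, Dnajb4, and the count lower was 1 without that library, SKI-II replicate 1 or SKI-II replicate 3.

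Of 8 BAG and other HSP70 regulators 1 was higher and 4 were lower, against 18.4% and 19.7% of all tested genes. Bag5 rose by 0.61, while Bag4 fell by 0.88, St13 (the HSP70-interacting protein HIP) by 0.73, Stub1 (the ubiquitin ligase CHIP) by 0.43 and Bag6 by 0.42 on the log2 scale. Bag6 was lost without DMSO replicate 2 or 3 or SKI-II replicate 2, and Stub1 without those or SKI-II replicate 1. The lower count was 2 without any one of DMSO replicates 2 and 3 and SKI-II replicate 2. In the HSP70 and HSP110 relatives, 1 of 5 tested genes was higher and 2 were lower, beside the same 18.4% and 19.7%. Hspa2 had a log2 fold change of 1.61 (adjusted p = 0.0384 in edgeR's test) with overlapping groups at 0.617 to 5.06 CPM and lost its call without DMSO replicate 2 or 3 or SKI-II replicate 1 or 2. It was also not called by limma-voom (adjusted p = 0.0739) or by edgeR's test scaled by library size alone (adjusted p = 0.0504). Hspa14 and Hspa4, an HSP110-type exchange factor, had log2 fold changes of -0.50 and -0.40, and the count lower was 0 without DMSO replicate 2 and 1 without DMSO replicate 1 or SKI-II replicate 1 or 2.

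Small heat shock protein genes beside the members were mostly silent, with 2 of 7 tested, of which Hspb6 rose by 0.66 (adjusted p = 0.0425 in edgeR's test), with 1 SKI-II library inside the DMSO range and the call lost without DMSO replicate 1 or 2 or SKI-II replicate 1 or 3 and in limma-voom (adjusted p = 0.0513). Heat shock factors and their binding proteins had 3 of 6 genes tested, and 0 were called in either direction by edgeR, DESeq2 or limma-voom, also with 0 at an unadjusted p below 0.05 in edgeR, and 1 was called higher without DMSO replicate 3. Among other heat-inducible genes 1 of 9 tested was higher and 4 were lower, against 18.4% and 19.7% of all tested genes. Zfand2a, a zinc finger gene induced by arsenite and heat, was at 39.7, 51.7 and 66.4 CPM in DMSO and at 139, 102 and 110 CPM in SKI-II, without overlap and higher by 1.15 on the log2 scale (adjusted p = 0.00145 in edgeR's test). The mitochondrial chaperonin pair Hspd1 and Hspe1 each fell by 0.65, Mrpl18 by 0.78 and Clu, which encodes the secreted chaperone clusterin, by 1.16 on the log2 scale.

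**Figure D5:**
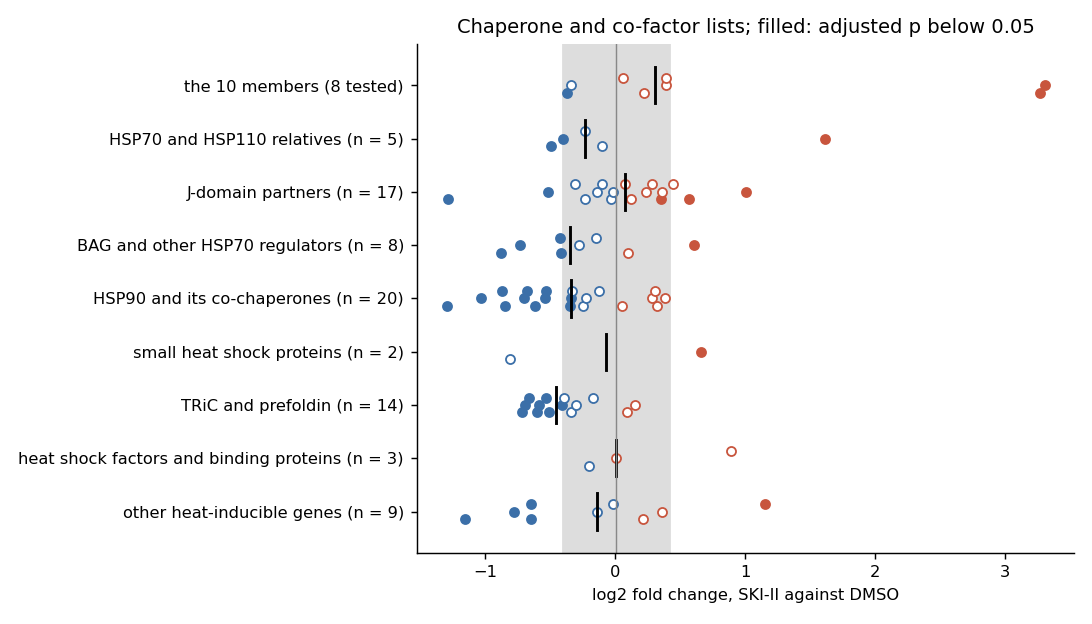
Log2 fold change of SKI-II against DMSO (horizontal axis) for each tested gene of the members and of 8 groups of chaperones, co-factors and other heat-inducible genes, with filled points for an adjusted p below 0.05, red above and blue below 0, black bars for group medians and grey for the interquartile range of all tested genes. HSP90 co-chaperones and TRiC lie mostly below 0, with medians of -0.34 and -0.46 for their groups, and Hspb8 and Hspa1b have the highest values shown.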

How the data were processed

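Poly(A)-selected RNA of 6 libraries was sequenced. Per the labels and the study's methods, the authors trimmed reads with Trimmomatic 0.36, mapped them with STAR 2.5.2b, counted them with featureCounts of Subread 1.5.2 and deposited the raw count of reads per Ensembl gene. The sources used here do not give genome build, annotation release, read length, strand or the treatment of reads with several matches, so near-identical copies and antisense genes are uncertain.

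Symbols came from GENCODE M21, which named 48970 of 49315 identifiers and gave the positions in GRCm38. In edgeR 4.0.16 (R 4.3.3) a quasi-likelihood model was fitted across all genes after TMM scaling and filterByExpr (minimum count 10, minimum total 15), with Benjamini-Hochberg adjustment over 12274 genes. Called means an adjusted p below 0.05, which the study's rule joins to a log2 fold change above 1 or below -1. Standard errors and 95% intervals came from the fitted weights and moderated dispersion. Libraries of a group differed by more than sampling noise (chi-square over its degrees of freedom 15.4 to 58.1) and counted as 1 replicate each.

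Alternatives were DESeq2 1.42.0, limma-voom (limma 3.58.1), RLE scaling, library size alone, other filters, the study's rule, the replicate number as a block, and each library left out. The programs were tested on simulated data. Figures were drawn with matplotlib 3.10.9. The named genes are the members, HSP70 and HSP90 genes of 2 other compartments, the 5 genes most correlated with the Hspa1 sum, and in each group the 3 highest and 3 lowest called genes. Of the 5 correlated genes, 1 is not reported here. Members, groups and rules were chosen with earlier results of these data known.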

Additional observations from a re-analysis of the deposited data

How the results depend on the processing

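Hspb8 and Hspa1b were called higher under every alternative that tested them. Several of these took them in through the SKI-II libraries, where they were high, so this is a description only. Where each library had to hold 10 counts or more, neither was tested and 0 members were called higher. With no filter 4 were called higher and 0 lower. Requiring a log2 fold change above 1 or below -1 left 0 members lower, 3 genes of the other 8 groups higher and 4 lower, and 1016 genes higher and 913 lower among all tested. Leaving out 1 library gave 2 to 4 members higher and 0 to 1 lower, 3 to 8 genes of those groups higher and 21 to 29 lower, and 1507 to 2227 and 1766 to 2387 genes in all. Hsp90aa1 turned sign without DMSO replicate 2, at -0.02, and without SKI-II replicate 1, at -0.0903, in a range of -0.0903 to 0.17 over the libraries left out. The cause was not tested. Same-numbered libraries deviated together with correlations of 0.246, 0.00994 and 0.458, so the numbers were not taken to pair the libraries. With the replicate number as a block, 3 members were higher, Hsph1 being added (log2 fold change 0.38, adjusted p = 0.0177 in edgeR's test), and 1 lower. With the block 2 genes of HSP90 and its co-chaperones were called higher, against 0, and 10 genes of TRiC and prefoldin lower, at least 2 of them prefoldin genes. Among all tested genes the block gave 2765 higher and 2819 lower. Scaling by RLE or by library size alone moved the median of all genes by at most 0.00765 on the log2 scale. A level below 1 CPM rests on fewer than 20 counts in these libraries.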

Other observations

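Within the SKI-II group, replicate 1 was the highest library for 8 of the 10 members and replicate 3 the lowest for 8 of them, and Hsf1 was highest in replicate 3.

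Among the 5 tested genes whose log2 CPM followed the sum of Hspa1a and Hspa1b most closely over the 6 libraries were Gm30329, Ift74, Tada2b and Wbp1l, with Pearson correlations of 0.996 to 0.997. The 6 points share the split into DMSO and SKI-II and the low SKI-II replicate 3, and the correlations are given as a description.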
